A study of Mus musculus with 10 samples.

Results

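Lysosome genes and the factors of the TFEB class that are known to drive them were followed through 2 courses of fibroblast reprogramming. The 35 genes were taken by symbol from the 48476 genes of the count table: the 3 factors Tfeb, Tfe3 and Mitf, 8 membrane proteins, 9 proteases, 9 enzymes of carbohydrate breakdown, 3 proteins of lipid breakdown and 3 subunits of the proton pump. Mouse embryonic fibroblasts (MEFs) from CBA/CaJ X C57BL/6J embryos at E13.5 received Oct4, Klf4 and Sox2 (OKS) by retrovirus and were kept in iCD1 medium. The control arm also received the red fluorescent protein DsRed (OKS + DsRed) and the other arm received FoxO6 (OKS + FoxO6), a forkhead factor, so every library carries OKS. Bulk RNA-seq was made at days 0, 1, 3, 5 and 7. Each arm gave a single library a day, 10 in all, and 1 day therefore has no replicate check. The libraries hold 1208379 to 2225750 expected counts, the number of reads that RSEM assigns to genes. All cells of a dish were sequenced together, so fewer cells of a type and less RNA per cell cannot be told apart. The days of an arm may also share 1 infected culture, and the p-values below describe these 2 courses.

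Lysosomes are acidic vesicles in which proteins, glycans and lipids from endocytosis and autophagy are broken down. Their proton pump (V-ATPase) acidifies the lumen, soluble hydrolases work there, and membrane proteins line the vesicle and carry its products out. TFEB, TFE3 and MITF are basic helix-loop-helix factors that bind the E-box CACGTG, often in the longer CLEAR element around TCACGTGA, upstream of lysosome genes. The kinase mTORC1 keeps them in the cytosol by phosphorylation when nutrients are plentiful, so their activity is set in large part by where the protein is.

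The E-boxes around the starts of these genes are shown here because they are the feature that links the genes to the factors. RefSeq start windows of GRCm38.p6, reaching from 250 bases before to 50 bases after an annotated start, were found for 29 of the 35 genes (the others are Ctsb, Asah1, Atp6v1h, Npc1, Laptm4b and Ctsh). CACGTG stood in a window of 13 of the 29 genes (44.8%), against 8.09% of all 27025 genes with a window. TCACGTGA, which contains CACGTG, stood in 6 of 29 (20.7%), against 1.12% of all genes. The forkhead motif TGTTTAC, sought on both strands like the others, stood in 0 of 29, against 4.05% of all genes. A match of letters is not evidence of binding, and no match says only that the letters are not in these windows. The genes were chosen as lysosome genes, which the factors are known to drive, so the shares do not test that link. Below, TCACGTGA and any other CACGTG are in capitals, and each stretch runs 5′ to 3′ on the strand of the gene.
Lamp1, chr8:13159070-13159160, plus strand: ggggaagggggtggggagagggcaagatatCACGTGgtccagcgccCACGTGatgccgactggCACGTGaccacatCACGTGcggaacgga
Gla, chrX:134601164-134601255, minus strand: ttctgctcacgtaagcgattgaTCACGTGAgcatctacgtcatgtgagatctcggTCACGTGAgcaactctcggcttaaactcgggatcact
Mcoln1, chr8:3500418-3500509, plus strand: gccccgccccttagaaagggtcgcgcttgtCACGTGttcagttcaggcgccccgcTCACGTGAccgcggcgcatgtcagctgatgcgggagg
Ctsd, chr7:142387890-142388077, minus strand: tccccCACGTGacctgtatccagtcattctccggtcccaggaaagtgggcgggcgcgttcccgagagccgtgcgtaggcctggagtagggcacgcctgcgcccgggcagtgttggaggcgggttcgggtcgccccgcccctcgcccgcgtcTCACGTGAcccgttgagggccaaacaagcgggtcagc
Ctsa, chr2:164833731-164833784, plus strand: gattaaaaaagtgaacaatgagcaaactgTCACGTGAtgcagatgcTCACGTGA
Atp6v0d1, chr8:105566061-105566097, minus strand: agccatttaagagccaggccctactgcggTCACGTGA
Atp6v1a, chr16:44139355-44139420, minus strand: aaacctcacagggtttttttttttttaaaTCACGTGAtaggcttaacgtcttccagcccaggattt
Lamp1 had 4 copies of CACGTG, the first base of which lay between 61 and 15 bases before the start, and none in the longer form. Gla and Ctsa had 2 copies each, both in the longer form, and those of Ctsa were in the second of its 2 windows, 1 before and 1 after the start of that window's transcript, inside the gene. Its first window, at the start of the gene, held none. The copy of Atp6v0d1 spanned the start. Ctsd and Mcoln1 had 2 copies each, 1 of them in the longer form. Atp6v1a is shown because it has the longer form and yet was not past the threshold for the difference between the arms. By the results that follow, CACGTG stood in 9 of the 18 genes with a window that were higher in OKS + FoxO6 and in 4 of the 11 that were not. These 11 include the factors Tfeb, Tfe3 and Mitf, which had it in no window, and Mitf was too low to test. All 4 with it were lysosome genes, so the shares of the 18 and the 11 do not compare lysosome genes alone.

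Foxo6 separated the arms in every library. Its TPM (a level relative to all transcripts of the library and per transcript length) was 0.61 to 2.29 in OKS + DsRed, from at most 4 counts, and 762 to 1356 in OKS + FoxO6. It was already at 1017 at day 0 in OKS + FoxO6, so the day 0 libraries of the arms differ by the factor under study. Of 10 fibroblast markers, 8 fell from day 0 to day 7 over both arms, and their summed TPM went from 8962 to 3003 in OKS + DsRed and from 8512 to 3267 in OKS + FoxO6.

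The difference between the arms over the 5 days was tested with edgeR's quasi-likelihood test on rounded counts, with terms for day and arm. Its p-values were adjusted by Benjamini-Hochberg over 12139 genes, with 0.05 as the threshold. Values after ± are standard errors. Of the 35 genes, 34 passed the filter on low counts, and 21 of these 34 were higher in OKS + FoxO6, while 6.69% of all genes tested were. Of the 34, 0 were lower, against 6.92% of all genes. Without adjustment 25 were higher and 1, Tfeb, was lower at p under 0.05, beside 13.2% and 14.6% of all genes. DESeq2 called 21 higher and 0 lower, beside 2.48% and 2.46% of the 22663 genes it fitted. These include genes too low for the filter, so the shares are not over the same genes as the 6.69% and 6.92%. The median log2 fold change of the 34 was 0.62, beside -0.02 over all genes tested. The 21 genes lay between 1.44-fold higher (Psap) and 3.24-fold higher (Ctsl), and their TPM was higher in OKS + FoxO6 on all 5 days. By role, the test called 6 of 9 proteases, 6 of 9 carbohydrate enzymes, 4 of 8 membrane proteins, 3 of 3 lipid proteins, 2 of 3 pump subunits and 0 of the 2 factors tested. A fit without the day term kept 9 of the 21 calls (Lamp1, Ctsa, Ctsb, Ctsk, Gaa, Gla, Hexa, Neu1 and Atp6v0d1). The other 12 had log2 fold changes of 0.52 to 1.56 in that fit, against 0.52 to 1.70 with the term. Expected counts were not whole, by a fraction over 0.005, in all 10 libraries for Ctsa and Ctsb and in 6 for Ctsd, which RSEM gives where it divides reads between genes.

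**Figure D1:**
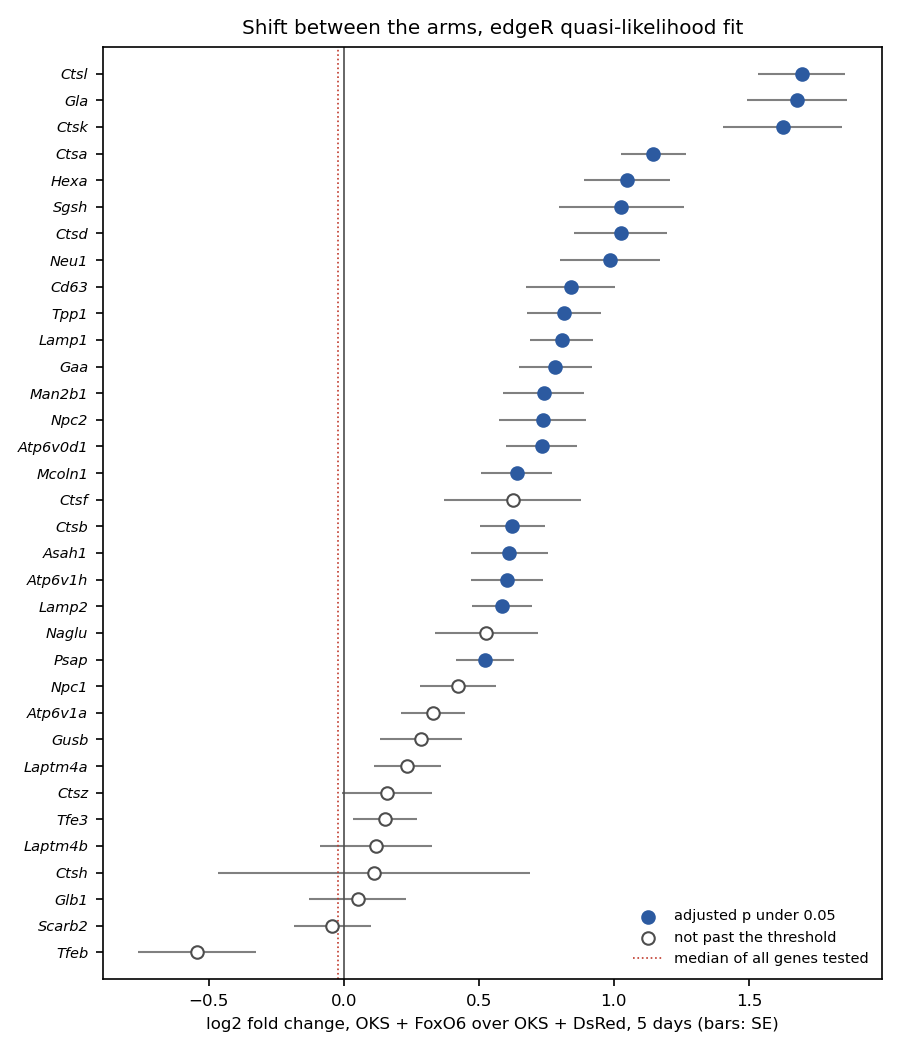
Log2 fold change of OKS + FoxO6 over OKS + DsRed across 5 days for the 34 genes tested (points, with standard errors as bars), filled where the adjusted p of edgeR's quasi-likelihood test is under 0.05. The filled points run from 0.52 (Psap) to 1.70 (Ctsl) and Tfeb, open, is lowest at -0.54.

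The order of the libraries was also read without a model. In TPM, 25 of the 34 were above the control on all 5 days, against 11.4% of all genes tested, and 0 were lower on all 5, against 9.70%. For 15 genes every OKS + FoxO6 library lay above every OKS + DsRed library, against 2.26% of all genes, and for 0 every one lay below, against 1.43%. The summed TPM of the 35 genes was 5210, 5473, 5229, 4285 and 3841 from day 0 to day 7 of OKS + DsRed. In OKS + FoxO6 it was 7548, 8185, 8567, 8149 and 7259, so that each of these lay above all those of the control. The ratio of the sums was 1.45 at day 0 and 1.89 at day 7.

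Neither Tfeb nor Tfe3 was past the threshold, and Mitf was too low to test. Tfe3 (ENSMUSG00000000134, chrX:7762560-7775202) was the most abundant of the 3 in each of the 10 libraries, then Tfeb (ENSMUSG00000023990, chr17:47737030-47792419), then Mitf (ENSMUSG00000035158, chr6:97807052-98021349). Values per library are given in the order of days 0, 1, 3, 5 and 7. The TPM of Tfeb was 16.1, 32.3, 27.2, 17.9 and 29.5 in OKS + DsRed, against 9.82, 17.1, 13.4, 23.9 and 22.0 in OKS + FoxO6. It was lower with FoxO6 on 4 days and higher at day 5, and the arms overlapped. The log2 fold change was -0.54 ± 0.22, with an adjusted p of 0.129 by edgeR's quasi-likelihood test, which is not past the threshold. These levels rest on 17 to 55 counts, and the effective length that RSEM used for Tfeb varied from 1488 to 2281 nucleotides with the transcripts it chose. The day 5 library of OKS + FoxO6 had the lowest of these lengths. In CPM (counts scaled to the library total, without length) Tfeb was lower with FoxO6 on all 5 days, with log2 differences from -1.01 at day 3 to -0.03 at day 7.

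Tfe3 had a TPM of 63.5, 97.1, 119, 99.2 and 83.8 in OKS + DsRed, against 83.3, 142, 122, 122 and 104 in OKS + FoxO6. It was higher with FoxO6 on all 5 days but the arms overlapped, and the log2 fold change of 0.15 ± 0.12 was not past the threshold (adjusted p = 0.456, edgeR). Mitf, the melanocyte and osteoclast member of the class, had at most 7 counts in any library. Its TPM was 0.32, 1.13, 2.91, 0.91 and 1.30 in OKS + DsRed and 1.94, 2.28, 1.11, 1.59 and 0.46 in OKS + FoxO6, with no order between the arms. The 3 factors together summed to a TPM of 79.9 to 149 in OKS + DsRed and 95.1 to 162 in OKS + FoxO6.

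Ctsl, Gla and Ctsk had log2 fold changes within a standard error of each other, and which of them was highest changed with the day left out. Ctsl (ENSMUSG00000021477, chr13:64359337-64370890) encodes cathepsin L, a cysteine protease. Its TPM was 299, 160.5, 156, 105 and 77.0 in OKS + DsRed and 674, 582, 448, 441 and 303 in OKS + FoxO6. It fell with time in both arms, and the lowest FoxO6 library was still above the highest control library. The log2 fold change was 1.70 ± 0.16 (adjusted p = 0.000139, edgeR). Ctsk (ENSMUSG00000028111, chr3:95499256-95509362), a collagen-degrading cathepsin best known from osteoclasts, had 35.2, 53.7, 63.3, 32.2 and 20.6 in OKS + DsRed and 84.0, 138, 137, 143 and 115 in OKS + FoxO6. The arms did not overlap, the ratio was over 2 on each day and reached 5.61 at day 7, and the log2 fold change was 1.62 ± 0.22 (adjusted p = 0.000956, edgeR).

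Ctsa encodes cathepsin A, a carboxypeptidase that also holds the sialidase Neu1 and beta-galactosidase in a complex. Its TPM was 127, 183, 165, 155 and 148 in OKS + DsRed and 255, 358, 414, 363 and 341 in OKS + FoxO6, without overlap, and the log2 fold change was 1.15 ± 0.12 (adjusted p = 0.000212, edgeR). Ctsd, the aspartic protease cathepsin D, had 565, 601, 541, 338 and 290.4 in OKS + DsRed and 817, 983, 1051, 938 and 828 in OKS + FoxO6. The control libraries fell from day 3 on while those with FoxO6 did not go below their day 0, and the log2 fold change was 1.02 ± 0.17 (adjusted p = 0.00329, edgeR). Ctsb, the cysteine protease cathepsin B, had 178, 187, 219, 209 and 168 in OKS + DsRed and 298, 288, 306, 284 and 315 in OKS + FoxO6. Its arms did not overlap and its log2 fold change of 0.62 ± 0.12 was the smallest among the proteases called (adjusted p = 0.00649, edgeR). Tpp1, tripeptidyl peptidase, had 110.3, 181, 202, 122 and 117 in OKS + DsRed and 184, 239, 310.1, 308 and 207 in OKS + FoxO6. Here the day 0 library with FoxO6 lay below the control library of day 3, and the log2 fold change was 0.82 ± 0.14 (adjusted p = 0.00315, edgeR).

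The other 3 proteases were not past the threshold. Ctsf, cathepsin F, had a TPM of 11.3, 13.8, 37.2, 27.5 and 20.4 in OKS + DsRed and 17.6, 22.2, 28.4, 53.6 and 49.0 in OKS + FoxO6. It was higher with FoxO6 on 4 days and lower at day 3, and its log2 fold change was 0.63 ± 0.25 (adjusted p = 0.131 and 0.0433 without day 3, edgeR). Ctsh, cathepsin H, had 13.2, 7.02, 7.31, 0 and 1.81 in OKS + DsRed and 21.6, 8.66, 5.74, 1.47 and 0 in OKS + FoxO6. These values come from 0 to 20 counts, and no order between the arms can be read at this depth. Ctsz, the carboxypeptidase cathepsin Z, lay between 140.1 and 274 in OKS + DsRed and between 183 and 279 in OKS + FoxO6 (log2 fold change 0.16 ± 0.17).

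**Figure D2:**
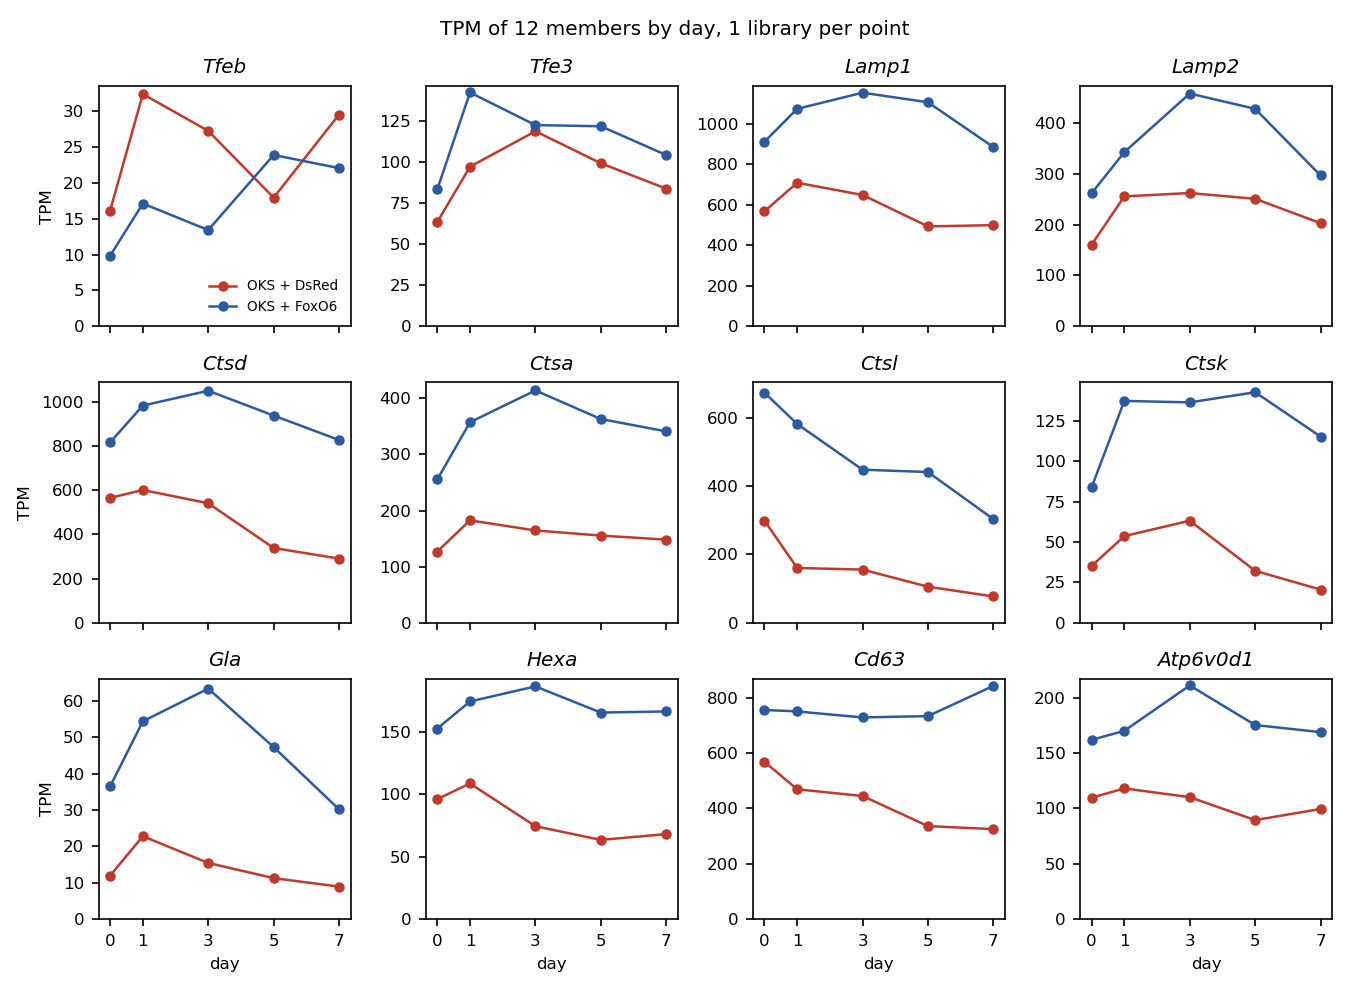
TPM (linear axes from 0) against day for 12 of the genes, with 1 library per point, OKS + DsRed in red and OKS + FoxO6 in blue. In 11 panels the blue line lies above the red on every day, closest for Tfe3 at day 3, and Tfeb is lower with FoxO6 on 4 of 5 days.

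Among the enzymes that break down carbohydrate chains, Gla (ENSMUSG00000031266, chrX:134588149-134601125) had the highest log2 fold change. It encodes alpha-galactosidase A, which removes galactose from glycolipids. Its TPM was 11.9, 22.8, 15.4, 11.3 and 8.92 in OKS + DsRed and 36.5, 54.4, 63.3, 47.3 and 30.1 in OKS + FoxO6. Every FoxO6 library was above every control library, the ratio was over 2 on each day, and the log2 fold change was 1.68 ± 0.18 (adjusted p = 0.00027, edgeR). Hexa, the alpha subunit of beta-hexosaminidase, which degrades gangliosides, had 96.0, 109, 74.3, 63.4 and 68.0 in OKS + DsRed and 153, 174, 186, 165 and 166 in OKS + FoxO6. The arms did not overlap, and the log2 fold change was 1.05 ± 0.16 (adjusted p = 0.00185, edgeR). Neu1, the sialidase, had 32.6, 49.6, 44.0, 38.4 and 28.1 in OKS + DsRed and 50.7, 65.7, 99.2, 101 and 78.4 in OKS + FoxO6. Its arms did not overlap, the ratio was 1.55 and 1.32 at days 0 and 1 and over 2 at days 3, 5 and 7, and the log2 fold change was 0.99 ± 0.18 (adjusted p = 0.00563, edgeR).

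Sgsh, the sulfamidase of heparan sulfate breakdown, had a TPM of 21.8, 20.3, 12.5, 6.31 and 13.5 in OKS + DsRed and 27.7, 30.7, 34.0, 35.4 and 21.1 in OKS + FoxO6. It was low throughout, with 18 to 122 counts, its arms overlapped at a single library, that of day 7, and its ratio of 5.61 at day 5 rests on the lowest control library. The log2 fold change was 1.03 ± 0.23 (adjusted p = 0.0145 and 0.0617 without day 3, edgeR). Gaa, the alpha-glucosidase of glycogen breakdown, had 124, 122, 116, 86.5 and 92.8 in OKS + DsRed and 166, 194, 199.8, 213 and 173 in OKS + FoxO6. Its arms did not overlap, and the log2 fold change was 0.78 ± 0.14 (adjusted p = 0.00379, edgeR). Man2b1, the alpha-mannosidase, had 31.2, 45.5, 57.8, 48.7 and 47.0 in OKS + DsRed and 48.5, 59.9, 110.2, 102 and 78.0 in OKS + FoxO6. It was higher with FoxO6 on each day, but its day 0 library with FoxO6 lay within the range of the control (log2 fold change 0.74 ± 0.15, adjusted p = 0.00883 and 0.0523 without day 5, edgeR). Naglu, Gusb and Glb1, which remove N-acetylglucosamine, glucuronic acid and galactose from glycan chains, were not past the threshold. Their log2 fold changes were 0.53 ± 0.19, 0.29 ± 0.15 and 0.05 ± 0.18, although Naglu did not overlap between the arms, at 13.2 to 26.6 in OKS + DsRed and 28.1 to 37.4 in OKS + FoxO6.

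Of the membrane proteins, Lamp1 (ENSMUSG00000031447, chr8:13159161-13175338) and Lamp2 are the abundant glycoproteins that line the lysosome. Lamp1 had a TPM of 567, 708, 648, 493 and 499 in OKS + DsRed and 910.1, 1072, 1152, 1105 and 884 in OKS + FoxO6, without overlap. Its log2 fold change was 0.81 ± 0.12 (adjusted p = 0.00133, edgeR). Lamp2 had 161, 255, 262, 251 and 203 in OKS + DsRed and 262, 342, 457, 427 and 296 in OKS + FoxO6. It was higher with FoxO6 on each day, and its day 0 library with FoxO6 was just below the highest control library (log2 fold change 0.59 ± 0.11, adjusted p = 0.00606, edgeR). Cd63, a tetraspanin of late endosomes and lysosomes, had 569, 469, 445, 336 and 325 in OKS + DsRed and 756, 751, 729, 734 and 843 in OKS + FoxO6. The control fell from day to day while the FoxO6 libraries lay between 729 and 843, without overlap (log2 fold change 0.84 ± 0.17, adjusted p = 0.00755, edgeR).

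Mcoln1, the lysosomal calcium channel, had a TPM of 43.6, 52.5, 116, 92.2 and 89.5 in OKS + DsRed and 75.0, 115, 124, 126 and 108 in OKS + FoxO6. The ratio between the arms was 2.19 at day 1 and 1.08 at day 3, and the control libraries of days 3, 5 and 7 lay above the day 0 library with FoxO6 (log2 fold change 0.64 ± 0.13, adjusted p = 0.00898, edgeR). The effective length that RSEM used for Mcoln1 was 2024 and 2012 nucleotides in the control at days 0 and 1 and 1327 to 1409 later, and in CPM the log2 difference between the arms was 0.80 at day 1 and 0.48 at day 3. The other 4 membrane proteins were not past the threshold. Npc1, which exports cholesterol, had a log2 fold change of 0.42 ± 0.14 with an adjusted p of 0.0684 by edgeR, which was 0.0423 without day 7. Scarb2, the receptor that carries glucocerebrosidase to lysosomes, and the transmembrane proteins Laptm4a and Laptm4b had -0.04 ± 0.14, 0.24 ± 0.12 and 0.12 ± 0.21.

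All 3 proteins of lipid breakdown were higher with FoxO6. Npc2, which hands cholesterol to Npc1, had a TPM of 139, 143, 137, 95.8 and 82.2 in OKS + DsRed and 166, 209, 245, 184 and 187 in OKS + FoxO6. Its libraries did not overlap, and the ratio was 1.19 at day 0 and 2.27 at day 7 (log2 fold change 0.74 ± 0.16, adjusted p = 0.0122, and 0.0527 without day 3 and 0.0574 without day 5, edgeR). Psap, the precursor of the saposins that present sphingolipids to their enzymes, had 445, 400.3, 396, 353 and 401 in OKS + DsRed and 693, 524, 517, 591 and 585 in OKS + FoxO6. Its libraries did not overlap either, with a log2 fold change of 0.52 ± 0.11 (adjusted p = 0.00868 and 0.0531 without day 5, edgeR). Asah1, acid ceramidase, had 308, 199.6, 159, 152 and 125 in OKS + DsRed and 355, 274, 305, 255 and 196 in OKS + FoxO6. It was lower at day 7 than at day 0 in both arms, it was higher with FoxO6 on each day, and the arms overlapped across days (log2 fold change 0.61 ± 0.14, adjusted p = 0.0163, and 0.0769 without day 3 and 0.0757 without day 5, edgeR).

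Of the pump, Atp6v0d1, in the membrane sector, had a TPM of 109.6, 118, 110.1, 89.4 and 99.4 in OKS + DsRed and 162, 170.0, 211, 175 and 169 in OKS + FoxO6. The arms did not overlap, and the log2 fold change was 0.73 ± 0.13 (adjusted p = 0.00487, edgeR). Atp6v1h, a regulatory subunit of the cytosolic sector, had 83.3, 78.6, 61.5, 41.2 and 46.7 in OKS + DsRed and 115, 132, 86.6, 72.5 and 78.1 in OKS + FoxO6. It was higher with FoxO6 on each day, and both arms were lower at day 7 than at day 0 (log2 fold change 0.60 ± 0.13, adjusted p = 0.0132 and 0.0569 without day 5, edgeR). Atp6v1a, the catalytic subunit, was level at day 1 and its log2 fold change of 0.33 ± 0.12 was not past the threshold (adjusted p = 0.0916, edgeR).

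On a single day, a difference of at least 1 in log2(TPM + 1), a scale that understates low genes, was called 2-fold, with no test. The background is every gene that reached a TPM of 1 in either library of that day. At day 0, 32 of the 35 genes were higher with FoxO6 (57.6% of all genes were), 6 of them 2-fold (background 14.5%), and 0 were 2-fold lower (background 9.26%). At day 1, 30 were higher (49.3% of all genes), 4 of them 2-fold (background 11.1%), and 0 were 2-fold lower (background 13.1%). At day 3, 29 were higher (49.1% of all genes), 7 of them 2-fold (background 11.2%), and 0 were 2-fold lower (background 15.3%). At day 5, 34 of 35 were higher (50.7% of all genes were), 14 of them 2-fold (background 13.6%), and 0 were 2-fold lower (background 14.9%). At day 7, 31 were higher (40.7% of all genes), 11 of them 2-fold (background 10.6%) and 1, Ctsh with 0 counts in the FoxO6 library, was 2-fold lower (background 21.1%). The 2-fold higher genes include Mitf at day 0 and Ctsh at day 5, on few counts. At a TPM of at least 5, which leaves these out, 5 were 2-fold higher at day 0 and 13 at day 5. In CPM 28, 30, 28, 32 and 33 genes were higher with FoxO6 at days 0, 1, 3, 5 and 7. The order of days 5 and 7 turned in CPM, where 13 genes were 2-fold higher at day 5 and 15 at day 7. The share of 2-fold higher genes was thus near the background at days 0 and 1 and above it from day 3 on, and the share of 2-fold lower genes was below it on each day. The median difference of the 35 genes was 0.59, 0.52, 0.61, 0.80 and 0.73 at days 0, 1, 3, 5 and 7, and that of all genes was 0.13, -0.01, -0.01, 0.01 and -0.20.

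**Figure D3:**
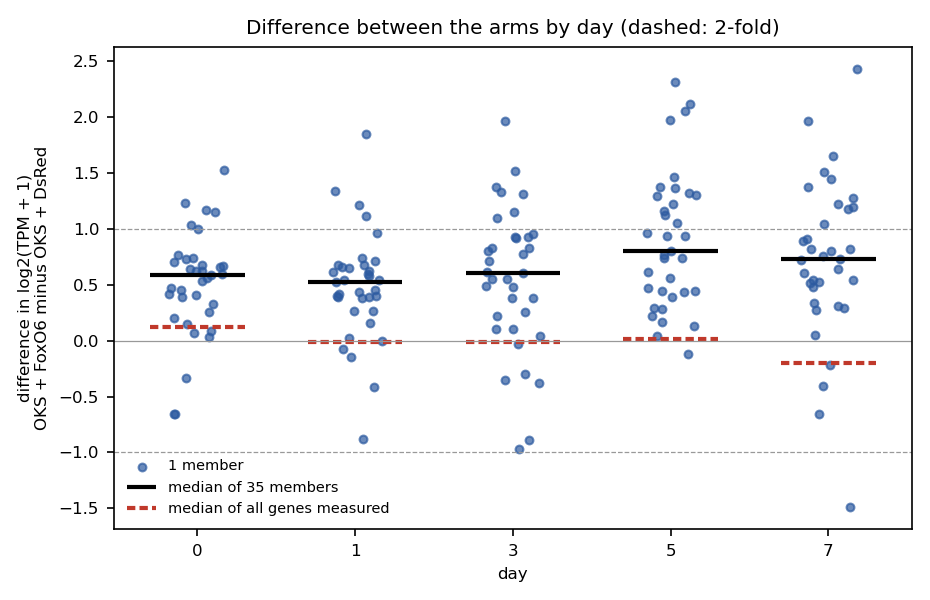
Difference in log2(TPM + 1) between OKS + FoxO6 and OKS + DsRed by day, with 1 point per gene, the median of the 35 genes as a black line and that of all genes measured as a red dashed line. The black lines run from 0.52 to 0.80, the red from -0.20 to 0.13.

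Ctsl, Ctsk and Gla were 2-fold higher on all 5 days. Ctsa was on 4 days, Hexa and Neu1 on 3, and Cd63, Ctsd and Sgsh on 2. Whether the difference moved with day was tested with a linear term for arm by day in the same model. Of the 34 genes, 2 widened, against 1.10% of all genes tested, and 0 narrowed, against 0.643%. DESeq2 gave the same counts, beside 0.384% and 0.269% of its 22663 genes, and at an unadjusted p under 0.05 the counts were 15 and 0, beside 9.85% and 8.22% of all genes tested. Ctsd widened by 0.18 ± 0.03 per day on the log2 scale (adjusted p = 0.0184, edgeR's quasi-likelihood test) and Cd63 by 0.16 ± 0.04 (adjusted p = 0.0492). Without day 0 or day 7 neither slope was past the threshold (adjusted p = 0.0922 and 0.126 for Ctsd, 0.178 and 0.352 for Cd63), and that of Cd63 was not without any other day either (adjusted p of 0.0587 to 0.0843, edgeR). In TPM the ratio of Ctsd was 1.45 at day 0 and 2.85 at day 7, and that of Cd63 was 1.33 and 2.59. The fitted slope was above 0 for 32 of the 34 genes, beside 52.0% of all genes tested.

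The time course shared by both arms was read from day 7 against day 0 in the first model. Of the 34 genes, 3 rose, against 11.8% of all genes tested, and 3 fell, against 10.2%. Tfeb rose by a log2 fold change of 1.17 ± 0.35 (adjusted p = 0.0355, edgeR's quasi-likelihood test). Ctsf rose by 1.27 ± 0.41 (adjusted p = 0.0455) and Mcoln1 by 0.66 ± 0.21 (adjusted p = 0.0431), and DESeq2 called none of these 3 rises. The rise of Mcoln1 was not past the threshold without day 1, 3 or 5 (adjusted p of 0.0607 to 0.0793) and that of Ctsf not without day 1 or 5 (0.0689 and 0.0635, edgeR). Ctsh, Ctsl and Asah1 fell, with log2 fold changes of -4.63 ± 1.06, -1.53 ± 0.25 and -1.12 ± 0.22 (adjusted p = 0.00911, 0.00136 and 0.00431, edgeR's quasi-likelihood test). DESeq2 called the falls of Ctsl and Asah1 and gave Ctsh an adjusted p of 0.0506. Within OKS + DsRed, 1 gene (Mcoln1) was 2-fold higher at day 7 than at day 0 (background 26.0%) and 3 (Asah1, Ctsh and Ctsl) were 2-fold lower (background 13.6%). In CPM, without the change in effective length, Mcoln1 went from 51.0 to 66.3 there and was not 2-fold higher. Within OKS + FoxO6, 2 (Ctsf and Tfeb) were 2-fold higher (background 17.3%) and 3 (Ctsh, Ctsl and Mitf) were 2-fold lower (background 20.1%). The median change of the 35 genes from day 0 to day 7 was -0.25 in OKS + DsRed, where that of all genes was 0.19, and 0.06 in OKS + FoxO6, where that of all genes was -0.10.

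Genes of the same pathway outside the 35 were read from 5 lists of 123 genes, 112 of them tested. In these lists 37 genes were higher with FoxO6 and 3 were lower by edgeR's quasi-likelihood test, with a median log2 fold change of 0.39, beside the 6.69% and 6.92% of all genes given above. DESeq2 called 28 and 3. Of 15 further subunits of the V-ATPase tested, 7 were higher and 0 lower. Atp6v1e1, of the cytosolic sector, was at a TPM of 97.9 to 170 in OKS + DsRed and 199 to 352 in OKS + FoxO6 (log2 fold change 1.12). Atp6v0b, of the membrane sector, was at 137 to 235 and 367 to 401 (log2 fold change 1.11). Of 31 further hydrolases, 12 were higher, led by Lgmn, Galc and Dpp7 with log2 fold changes of 1.21, 1.18 and 1.18. DESeq2 called 9 hydrolases of this list higher. Lgmn is asparaginyl endopeptidase, Galc the galactosylceramidase and Dpp7 a dipeptidyl peptidase. In the same list 2 were lower, the ganglioside activator Gm2a at -0.87 and arylsulfatase B (Arsb) at -0.84. Of 19 further membrane proteins, 8 were higher, led by the sialic acid exporter Slc17a5 at 1.39, Ostm1 at 0.86 and its partner chloride exchanger Clcn7 at 0.70, and DESeq2 called 4. In that list 1 was lower, Laptm5 at -1.10, which is made by blood cells.

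Genes listed as upstream control of TFEB had 6 of 24 higher and 0 lower, and DESeq2 called 4 higher. Flcn and its partners Fnip1 and Fnip2, which act on the GTPase that brings TFEB to mTORC1, had log2 fold changes of 1.04, 0.89 and 0.72. Rragc, that GTPase, had 0.70. Slc38a9, an arginine sensor of mTORC1, had 1.09 from a TPM of at most 6.92, and Nprl3, of a complex that restrains mTORC1, had 0.63. These genes act on the pathway in both directions, and their mRNA levels do not measure its activity. Of 23 genes that sort enzymes to the lysosome, 4 were higher (Tsg101 0.68, Vps41 0.67, Vps26a 0.56 and Rab7 0.49) and 0 lower. In the 3 lists with 0 genes lower by edgeR's quasi-likelihood test, 0 were lower at an unadjusted p under 0.05 and 0 by DESeq2.

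**Figure D4:**
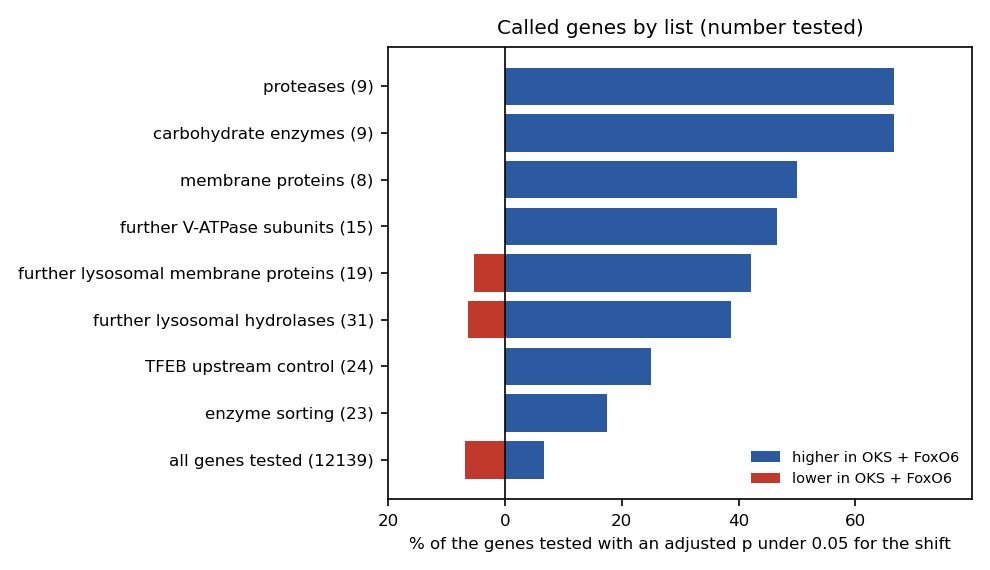
Percent of the genes tested in each group with an adjusted p under 0.05 for the difference between the arms, with higher in OKS + FoxO6 to the right and lower to the left of 0 (horizontal axis in percent). Groups with at most 3 genes tested are not drawn, and the bars range from 17.4% higher (enzyme sorting) to 66.7% (proteases and carbohydrate enzymes), beside 6.69% of all genes.

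Several of these genes are also abundant in other cell types, and the markers of such types were measured. Of 17 macrophage markers, 7 had over 3 counts in any library, C1qc was at 0 in all, and Ptprc, Adgre1 and Csf1r had at most 3. Their summed TPM was 23.4 to 169 in OKS + DsRed and 36.0 to 62.8 in OKS + FoxO6, and Mpeg1 and Laptm5 were lower with FoxO6 (adjusted p = 0.00427 and 0.0172, edgeR's quasi-likelihood test). The ratio of the sums, OKS + FoxO6 over OKS + DsRed, was 1.54 at day 0 and 0.33 to 0.68 on the later days, and 3 of the 17 could be tested. Of 8 osteoclast markers, 4 had over 3 counts, with Calcr and Dcstamp at 0, and the sum was 3.89 to 22.3 in OKS + DsRed and 5.0 to 21.2 in OKS + FoxO6, which stand beside the difference of Ctsk. Their ratio was 1.09, 1.92, 3.25, 0.70 and 0.37 from day 0 to day 7. Of 5 melanocyte markers, 3 had over 3 counts, Mlana was at 0, and the sum was 0.64 to 6.33 in OKS + DsRed and 1.37 to 14.5 in OKS + FoxO6, with Tyr higher (adjusted p = 0.0167, edgeR). Their ratio was 0.22 at day 0 and 3.43 to 9.05 on the later days. The ratio of 9.05, at day 1, divides by a control sum of 0.64 that was Tyr alone. Most of the control sum at day 0 was Pmel, with at most 7 counts in any library, so these ratios rest on few counts. Of 9 endothelial markers, 7 had over 3 counts, Emcn had at most 1, and the sum was 25.4 to 61.1 in OKS + DsRed and 37.2 to 143 in OKS + FoxO6, with Tek and Kdr higher (adjusted p = 0.00112 and 0.029, edgeR). Their ratio was 1.47 to 2.60 over the 5 days, and most of the sum was Tek and Kdr. Pecam1 was at most 5.73 in OKS + DsRed and 0.76 in OKS + FoxO6, and Vwf at most 3.28 and 2.62. Of the 10 fibroblast markers, Dcn and Pdgfra were higher and Col3a1 lower with FoxO6. The ratio of their sums was 0.95, 0.71, 0.99, 1.34 and 1.09 from day 0 to day 7. By the test of the arm by day slope, 2 of the 10 widened and 0 narrowed, against 1.10% and 0.643% of all genes tested. The part of any of these cell types in the difference of the lysosome genes was not tested.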

How the data were processed

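RNA of bulk MEF cultures was sequenced at 5 days in 2 arms. The authors used bowtie2 within RSEM against the GENCODE M13 transcriptome (mm10, GRCm38) and deposited expected counts, RSEM estimates without further normalization, and TPM computed by the authors from the same alignments. The study's methods name a TruSeq kit and the labels a VAHTS kit. Gene coordinates come from GENCODE M21 (GRCm38) and start windows from RefSeq (GRCm38.p6). Samples were grouped by their titles, and no sample was left out.

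Expected counts were rounded and fitted in R 4.3.3 with edgeR 4.0.16 (TMM, filterByExpr, day and arm as terms, 4 residual degrees of freedom, and 3 with the arm by day slope). Values per day are log2(TPM + 1), with a pseudocount of 1. The fit was tested on simulated data. Totals of 1208379 to 2225750 counts per library limit the precision of genes with few counts. Alternatives were RLE size factors, no filter, an offset for transcript length, DESeq2 1.42.0, no day term, each day left out, a pseudocount of 0.1, CPM (TMM, prior count of 2) and a TPM of at least 5.

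The members, the lists and the tests were chosen with earlier results of these data known. Values in every library are given for the 3 factors, for members past the threshold for the difference between the arms or its slope, for members 2-fold apart on at least 2 days, and for the 3 largest rises and falls from day 0 to day 7. From each pathway list at most the 3 highest and 3 lowest called genes are named. Figures were drawn with matplotlib 3.10.9 under Python 3.11.15.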

Additional observations from a re-analysis of the deposited data

Results flagged for a closer look

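For 2 genes the difference between the arms itself changed with day, by the test of the arm by day slope (edgeR's quasi-likelihood test, adjusted p under 0.05). The slope of Ctsd, in log2 per day, was 0.18 and that of Cd63 was 0.16. Neither slope was past the threshold without day 0 or day 7. In both genes the OKS + DsRed libraries were lower at day 7 than at day 0 and the OKS + FoxO6 libraries were not. This pattern was not particular to them. It was also seen in Ctsk and Neu1, among others, whose slopes of 0.21 and 0.17 were not past the threshold.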

How the results depend on the processing

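Of 34 genes tested, 21 were higher in OKS + FoxO6. This count was 9 of 33 without the day term (background 1.13%) and 16 to 22 when a day was left out, with 15 of the 21 calls kept in each of those fits. Rises from day 0 to day 7 numbered 3, but 0 with DESeq2 and 1 to 2 when a day was left out. Widening differences numbered 2, but 1 with RLE size factors, 4 with no filter and 0 to 1 when a day was left out. The slope of Cd63 also lost its call under the length offset (adjusted p = 0.126, edgeR). Genes 2-fold lower with FoxO6 at day 3 were 2 with a pseudocount of 0.1 and 1 in CPM, in place of 0. Those at day 7 were 2 with a pseudocount of 0.1, and 0 in CPM and at a TPM of at least 5, in place of 1. From day 0 to day 7 in OKS + DsRed, 2 were 2-fold higher with a pseudocount of 0.1 and 0 in CPM, and 6 were 2-fold lower in CPM. In OKS + FoxO6, 1 was 2-fold lower in CPM, and in CPM 1 gene (Tfeb) was lower with FoxO6 on all 5 days. With a day left out, signs turned within the ranges of Scarb2 (-0.18 to 0.0696, and 0.0444 without day 3), Laptm4b (-0.0181 to 0.34), Ctsz (-0.037 to 0.25) and Glb1 (-0.0968 to 0.21). None of these 4 was past the threshold. The cause of these changes was not tested. The day term pairs the arms by day, and the labels give no replicate numbers. A gene with few counts, such as Mitf or Ctsh, cannot be ordered between the arms at this depth.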
